A study of Mus musculus with 7 samples.

Results

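The smooth muscle contractile genes described here are Acta2, Tagln, Cnn1, Smtn, Lmod1, Pln and Actg2, a list chosen by name and not by any measured value. The deposited tables hold 6 of these 7 genes among 12958 gene symbols, and Actg2 was not analysed here. RNA came from isolated glomeruli, the filtering tufts of the kidney, of 7 male mice of the strain labelled BALB-C, with 1 library per mouse. Knockdown mice (n = 3) were transgenic for an siRNA against Shroom3, the gene of a cytoskeletal protein that binds actin at cell junctions, and control mice (n = 4) were littermates that lacked the siRNA sequence. Mice of both groups were given doxycycline in food and water from the age of 8 weeks for 6 weeks and were 14 weeks old. Neither the promoter nor the cell types that drive the transgene are stated in the labels. The comparison asks whether the glomerular level of the contractile genes differed between the 2 groups.

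Smooth muscle cells shorten when myosin pulls on thin filaments of actin after a rise in calcium has activated myosin light chain kinase. The thin filaments of these cells carry their own actin isoforms and accessory proteins, and many of the genes for them are switched on together by serum response factor with its partner myocardin, which bind DNA at a motif called the CArG box. In the kidney such cells wrap the arterioles that enter and leave the glomerulus, and mesangial cells inside the tuft have contractile properties of their own and can make smooth muscle actin after injury.

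Acta2, the actin of vascular smooth muscle, is the best known target of this control, so the CArG-like sites of its promoter are shown. The CArG box is CC, then 6 letters that are A or T, then GG. The search covered the 250 bases before the start of each gene in RefSeq's promoter table (GRCm38.p6), with the pattern being the same on both strands and with matches that hold 1 inner C or G counted apart. Acta2 held 2 such near matches and no exact one, starting 84 and 34 bases before the start that the table gives. They are printed in capitals within 30 bases each, on the minus strand.
Acta2 far site, chr19:34255438-34255467: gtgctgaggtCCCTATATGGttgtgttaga
Acta2 near site, chr19:34255388-34255417: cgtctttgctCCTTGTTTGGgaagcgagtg
GENCODE release M21 starts the Acta2 gene further upstream, at 34255590, and 217 of the 250 bases lie in its annotated exons or those of any other gene. Of 32851 promoter windows of this length, 8.59% held at least 1 match of this looser kind and 1.47% an exact one. The windows of Cnn1, Smtn, Lmod1 and Pln held neither, which says only that these letters are not in those windows. That of Smtn (chr11:3539293-3539542, minus strand) lies inside the gene as GENCODE draws it, from 3540612 on that strand. Tagln and Actg2 were not matched to the table.

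Stretches of coding sequence that actin genes share bear on how reads of Acta2 can be assigned. The longest coding sequence of Acta2 (1134 bases, GENCODE M21) was 84.2% identical to that of Actg2 and 81.5% identical to that of the cytoplasmic actin Actg1. The longest run that Acta2 shares letter for letter with Actg1 has 56 bases (coding bases 910 to 965), and the longest it shares with Actg2 has 29. That run is shown because a read inside it fits both genes equally.
Acta2 and Actg1: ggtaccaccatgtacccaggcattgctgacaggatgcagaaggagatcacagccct
Tagln and Cnn1 were less like their relatives, at 69.1% identity of Tagln with Tagln2 and 63.3% of Cnn1 with Cnn2. How reads that fit several genes were counted is not stated in the labels.

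The 7 libraries had log2 medians between 9.15 and 9.16. Depth and counting error are unknown, as the tables hold no read counts. Library titles begin with G (5 libraries: knockdown replicates 1 and 2, control replicates 1 to 3) or with CB6 (knockdown replicate 3 and control replicate 4), and what the styles stand for is not stated. The CB6 libraries deviated from their group means in nearly opposite directions across all genes (Pearson r = -0.958, a description over 12958 genes that are not independent). In 5 of the 6 members the 2 deviations had opposite signs. The share of all genes with opposite signs was not counted, so this cannot be called a trait of the members. Shroom3 itself overlapped between the groups (10.80, 10.91 and 10.89 in knockdown, 10.94, 10.85, 11.36 and 11.06 in control libraries), so the level of the targeted gene gives no check of the labels. Markers of the glomerulus were present, with a mean log2 level of 10 podocyte markers of 13.08 to 13.62 over the libraries, but so were those of tubules. The mean of 11 proximal tubule markers was 12.43 to 12.81 in knockdown and 13.02 to 13.40 in control libraries, without overlap. Of these, 10 were negative, 4 fell (Slc5a2, Slc22a6, Slc22a12 and Cyp2e1) and 1 rose (Pck1), named for having passed. Over all genes, 3.02% passed, 2.02% with lower and 0.996% with higher values in knockdown. Fibroblast, parietal epithelial and immune cell markers had means that overlapped between the groups (median log2 differences -0.02, 0.04 and -0.09 over 7, 7 and 4 measured genes), with 0 called in each. Myh11, the smooth muscle myosin heavy chain, was present in every library (11.70 to 12.66), as was Ren1 of the renin cells of the arteriole (10.57 to 11.42).

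Acta2 expression overlapped between the groups. The 3 knockdown libraries had log2 values of 11.03, 11.20 and 11.36, and the 4 control libraries 11.17, 10.38, 11.53 and 10.77. Both the lowest and the highest library were controls, and the knockdown libraries lay between them. Acta2 (ENSMUSG00000035783.9; GRCm38 chromosome 19, 34241090 to 34255590, minus strand) had means of 11.20 ± 0.16 (SD, n = 3) and 10.96 ± 0.50 (SD, n = 4), a log2 difference of 0.24 (SE 0.24, 95% CI -0.30 to 0.78). It did not pass the threshold of 0.05 (limma with Benjamini-Hochberg adjustment over all genes, adjusted p = 0.654), and the two-sided exact permutation p was 0.514, where 0.0286 is the smallest p that 3 against 4 libraries can give. In bulk glomeruli, a different number of smooth muscle cells and a different amount of RNA per cell cannot be told apart.

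**Figure D1:**
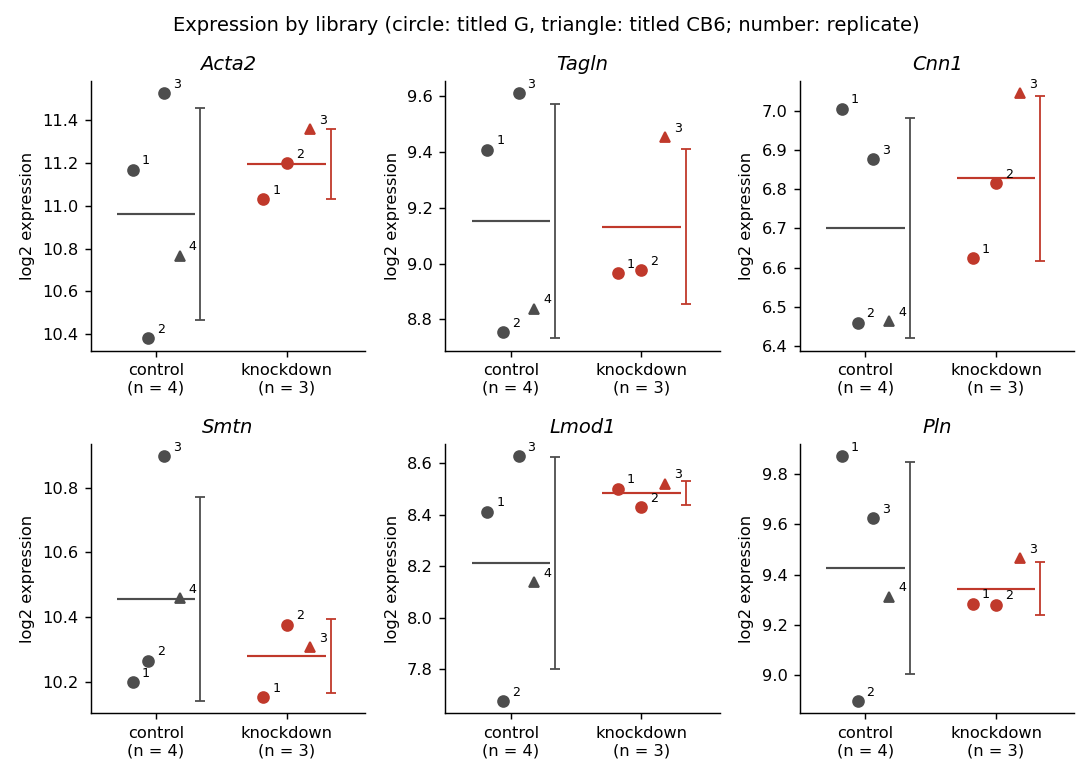
Log2 expression (vertical axes, each with its own range) of the 6 measured contractile genes in every library, with replicate numbers beside the points, circles for libraries titled G and triangles for those titled CB6; horizontal lines are group means and bars the SD. In all 6 genes the groups overlap, and control replicate 2 is the lowest library in 5 of them.

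Tagln encodes transgelin, a small actin-binding protein that is among the earliest markers of smooth muscle differentiation. Its log2 values were 8.97, 8.98 and 9.45 in the knockdown libraries and 9.41, 8.76, 9.61 and 8.84 in the control libraries. Control replicates 1 and 3 and knockdown replicate 3 were high, and the other libraries of both groups lay together lower down. The group means of Tagln (chromosome 9, 45929619 to 45936058) were almost equal. They were 9.13 ± 0.28 (SD, n = 3) for knockdown and 9.15 ± 0.42 (SD, n = 4) for control, giving a log2 difference of -0.02 (SE 0.22, 95% CI -0.53 to 0.49; limma, Benjamini-Hochberg adjusted p = 0.973).

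Cnn1 encodes calponin 1, which binds thin filaments and slows the cycling of myosin on them. The knockdown libraries held log2 values of 6.62, 6.82 and 7.05 and the control libraries 7.01, 6.46, 6.88 and 6.46. Knockdown replicate 3 was the highest of the 7 libraries, with control replicate 1 just below it. For Cnn1 (chromosome 9, 22099216 to 22109630) the means were 6.83 ± 0.21 (SD, n = 3) and 6.70 ± 0.28 (SD, n = 4), a log2 difference of 0.13 (SE 0.18, 95% CI -0.27 to 0.53; limma, Benjamini-Hochberg adjusted p = 0.757).

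Smtn encodes smoothelin, a cytoskeletal protein of contractile smooth muscle that is bound to actin filaments. Its log2 values were 10.15, 10.38 and 10.31 in knockdown and 10.20, 10.27, 10.90 and 10.46 in control libraries. It was the only member whose lowest library was a knockdown one (replicate 1), and control replicate 3 stood above the other libraries. Smtn (chromosome 11, 3517523 to 3540612) had means of 10.28 ± 0.11 (SD, n = 3) and 10.45 ± 0.32 (SD, n = 4), a log2 difference of -0.18 (SE 0.16, 95% CI -0.53 to 0.18; limma, Benjamini-Hochberg adjusted p = 0.603).

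Lmod1 encodes leiomodin 1, which starts new actin filaments in smooth muscle. The knockdown libraries were close to each other at log2 values of 8.50, 8.43 and 8.52, while the control libraries ranged over 8.41, 7.68, 8.63 and 8.14. Knockdown replicates 1 to 3 all lay above control replicates 1, 2 and 4 and below control replicate 3. Lmod1 (chromosome 1, 135324807 to 135368065) had the largest group difference of the 6 members, with means of 8.48 ± 0.05 (SD, n = 3) and 8.21 ± 0.41 (SD, n = 4), a log2 difference of 0.27 (SE 0.20, 95% CI -0.19 to 0.73). It did not pass either (limma, Benjamini-Hochberg adjusted p = 0.524; two-sided exact permutation p = 0.371, the smallest among the members).

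Pln encodes phospholamban, the membrane peptide that holds back the calcium pump of the sarcoplasmic reticulum and so acts on relaxation rather than on the filaments. Log2 values were 9.29, 9.28 and 9.47 in knockdown and 9.87, 8.90, 9.62 and 9.31 in control libraries. The knockdown libraries lay inside the range of the controls. Pln (chromosome 10, 53337667 to 53345987) had means of 9.34 ± 0.11 (SD, n = 3) and 9.43 ± 0.42 (SD, n = 4), a log2 difference of -0.08 (SE 0.20, 95% CI -0.54 to 0.38; limma, Benjamini-Hochberg adjusted p = 0.873). Its target pump gene Atp2a2 hardly varied, from 12.65 to 12.70 over the 7 libraries, with a log2 difference of -0.01 (limma, Benjamini-Hochberg adjusted p = 0.917).

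In all, 0 of the 6 members passed limma's test, also at an unadjusted p under 0.05, and 0 reached an exact permutation p under 0.05, beside 3.02% of the 12958 genes that passed with adjustment (0.996% higher and 2.02% lower in knockdown) and 18.4% that had an unadjusted p under 0.05. None of the 6 had groups that did not overlap, which 18.4% of all genes had. Acta2, Cnn1 and Lmod1 had positive and Tagln, Smtn and Pln negative log2 differences, with a median of 0.05 beside 0.02 over all genes. Over the members, the lowest lower bound of a 95% interval was -0.54 (Pln) and the highest upper bound 0.78 (Acta2). Every interval covered 0, which does not show that the groups were alike.

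**Figure D2:**
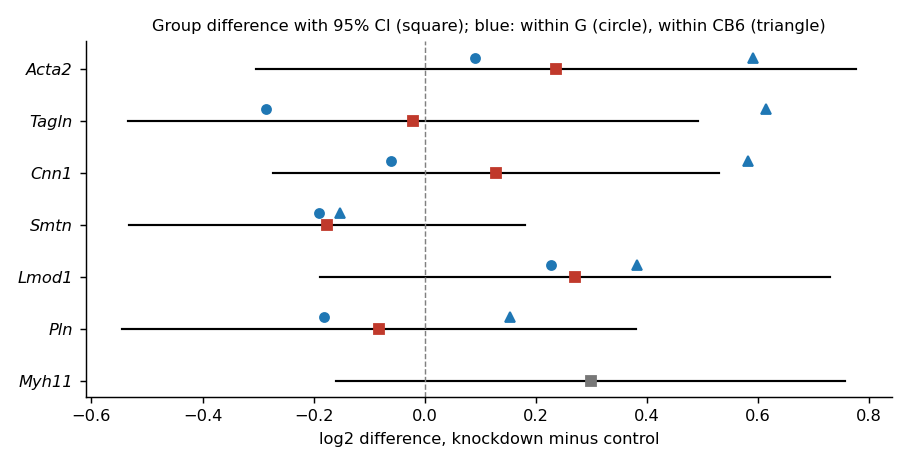
Log2 difference of knockdown minus control (horizontal axis) for each measured member and for Myh11: squares with lines are the fit over 7 libraries with its 95% CI, blue circles the difference within the libraries titled G and blue triangles that between the CB6 libraries. Every interval covers 0, and for Tagln, Cnn1 and Pln the circle and the triangle lie on opposite sides of 0.

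The direction of several members depended on the libraries used. Within the libraries titled G the log2 differences were 0.09 for Acta2, -0.29 for Tagln, -0.060 for Cnn1, -0.19 for Smtn, 0.23 for Lmod1 and -0.18 for Pln. Between the CB6 libraries, 1 against 1 and so without a replicate check, they were 0.59, 0.61, 0.58, -0.15, 0.38 and 0.15 in the same order. Smtn, Lmod1 and Acta2 thus kept their sign in both title styles, and Tagln, Cnn1 and Pln did not. Without control replicate 2, the differences of Acta2, Cnn1 and Lmod1 shrank to 0.04, 0.05 and 0.09, and without control replicate 3 those of Acta2 and Lmod1 grew to 0.42 and 0.41. Tagln was positive without control replicate 3 (0.13), control replicate 1 (0.06), knockdown replicate 1 (0.06) or knockdown replicate 2 (0.06), and Pln without control replicate 1 (0.066).

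The members varied more between mice of the same group than most genes did. The residual SD within groups was 0.40 for Acta2, 0.37 for Tagln, 0.33 for Pln, 0.32 for Lmod1, 0.26 for Cnn1 and 0.25 for Smtn, beside a median of 0.13 over all genes. Among all genes these values stood at percentiles from 86.3 (Smtn) to 96.8 (Acta2). For all 6 members the controls alone spanned more (0.55 for Cnn1 to 1.15 for Acta2 on the log2 scale) than the groups differed, and they spanned more than the 3 knockdown libraries did (0.09 for Lmod1 to 0.49 for Tagln). Whether the spread itself differed between the groups was not tested.

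The same libraries were high or low in most members. Control replicate 2 was the lowest library for 5 of the 6 members (Acta2, Tagln, Cnn1, Lmod1 and Pln) and below the gene's own mean for the sixth, Smtn. Control replicate 3 was above the mean for all 6 and the highest library for Acta2, Tagln, Smtn and Lmod1. After each gene's mean over the 7 libraries was taken off, the average over the 6 members was -0.44 in control replicate 2, -0.18 in control replicate 4, 0.17 in control replicate 1 and 0.35 in control replicate 3. The knockdown libraries lay between these, at -0.08, 0.00 and 0.18 for replicates 1 to 3. Marker lists followed in part. The mean of 11 smooth muscle and pericyte markers, Myh11 among them, was 9.90 in control replicate 2 and 10.50 in control replicate 3, the lowest and highest of all libraries. Not each of the 11 had this order. Mcam, Pdgfrb, Des and Mustn1 were lowest in knockdown replicate 1 and Map3k7cl in knockdown replicate 2. Map3k7cl, Olfr558 and Rasl12 were highest in control replicate 1. The mean of 6 arterial endothelial markers was 9.64 and 10.05 in control replicates 2 and 3, again the lowest and highest. This order did not hold for each of the 6 arterial markers. Fbln2 (7.79 and 8.82) and Sox17 were lowest in control replicate 2, but Gja5, Efnb2, Gja4 and Bmx were lowest in a knockdown library. The mean of 7 fibroblast markers was also lowest in control replicate 2 (7.84) and highest in control replicate 3 (8.08), though of these only Fbln5 and Mgp were lowest in control replicate 2. Over 3 renin cell markers control replicates 2 and 3 had 9.09 and 9.60, and over 10 podocyte markers 13.08 and 13.44. The part of these cells in the values of the members was not tested.

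Fbln2, Notch3 and Myh11 were the genes nearest to Acta2 across the 7 libraries. Nearness was taken as the root mean square difference between log2 profiles after each gene's mean was removed, a description over 7 libraries that share their normalization. It was 0.06 for Fbln2, a matrix protein of vessel walls, 0.07 for Notch3, the Notch receptor of smooth muscle and pericytes, 0.08 for Myh11, 0.09 for Ltbp4, which binds latent TGF-beta in the matrix, and 0.13 for Ptprr, beside 0.38 for the median gene. Notch3 and Myh11 are also on the list of smooth muscle and pericyte markers used here, and Fbln2 on that of arterial endothelial markers. Among the members, Lmod1 was nearest to Acta2 (0.12), ahead of Tagln (0.18), Cnn1 (0.21) and Pln (0.24), and Smtn was farthest (0.33). Myh11 had log2 values of 12.31, 12.39 and 12.60 in knockdown and 12.23, 11.70, 12.66 and 11.92 in control libraries, with control replicate 2 lowest and control replicate 3 highest as for Acta2. Its log2 difference of 0.30 did not pass (SE 0.20; limma, Benjamini-Hochberg adjusted p = 0.476). The mean profile of all 6 members was nearest to Cbx7, Foxp4, Klf2, Ptk7 and Mllt6 (0.04 to 0.07, beside 0.28 for the median gene). None of these is on the list of smooth muscle and pericyte markers used here. Klf2, a transcription factor best known from endothelium, is on the list of regulators of the contractile genes followed below.

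**Figure D3:**
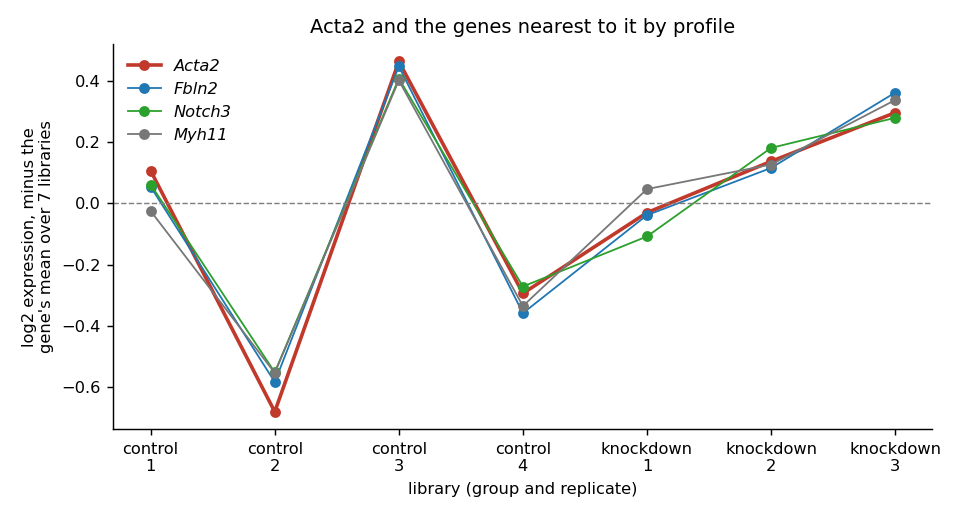
Log2 expression minus each gene's mean over 7 libraries (vertical axis) for Acta2 and its 3 nearest genes, by library (horizontal axis; lines only join points of 1 gene, since replicates have no order). All 4 genes are lowest in control replicate 2 and highest in control replicate 3, and Acta2 runs from -0.68 to 0.46.

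Set against Myh11 in the same library, Acta2 varied much less between mice. This ratio was chosen after the values were seen and carries no test. For Acta2 the narrowing restates that Myh11 was among the genes nearest to it (0.08), and it is not a separate result. The log2 ratio of Acta2 to Myh11 was -1.27, -1.19 and -1.24 in knockdown and -1.06, -1.32, -1.13 and -1.15 in control libraries, so that its SD within groups was 0.09 where that of Acta2 alone was 0.40. Lmod1 and Tagln narrowed as well, from 0.32 to 0.13 and from 0.37 to 0.12, while Smtn (0.25 and 0.24) and Cnn1 (0.26 and 0.21) changed less. Pln went from 0.33 to 0.23.

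Relative to Myh11, Tagln was lower in every knockdown library than in any control library. The log2 ratios were -3.34, -3.41 and -3.14 against -2.83, -2.95, -3.05 and -3.08, with means that differ by -0.32. Groups were apart in this way for 7.36% of all genes set against Myh11, nearly all with knockdown below (7.23%), and the median gene differed by -0.28, Myh11 itself having the higher mean in knockdown. The ratios of Smtn and Pln differed by -0.48 and -0.38 with overlapping groups, that of Cnn1 by -0.17, and those of Acta2 and Lmod1 by -0.06 and -0.03.

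**Figure D4:**
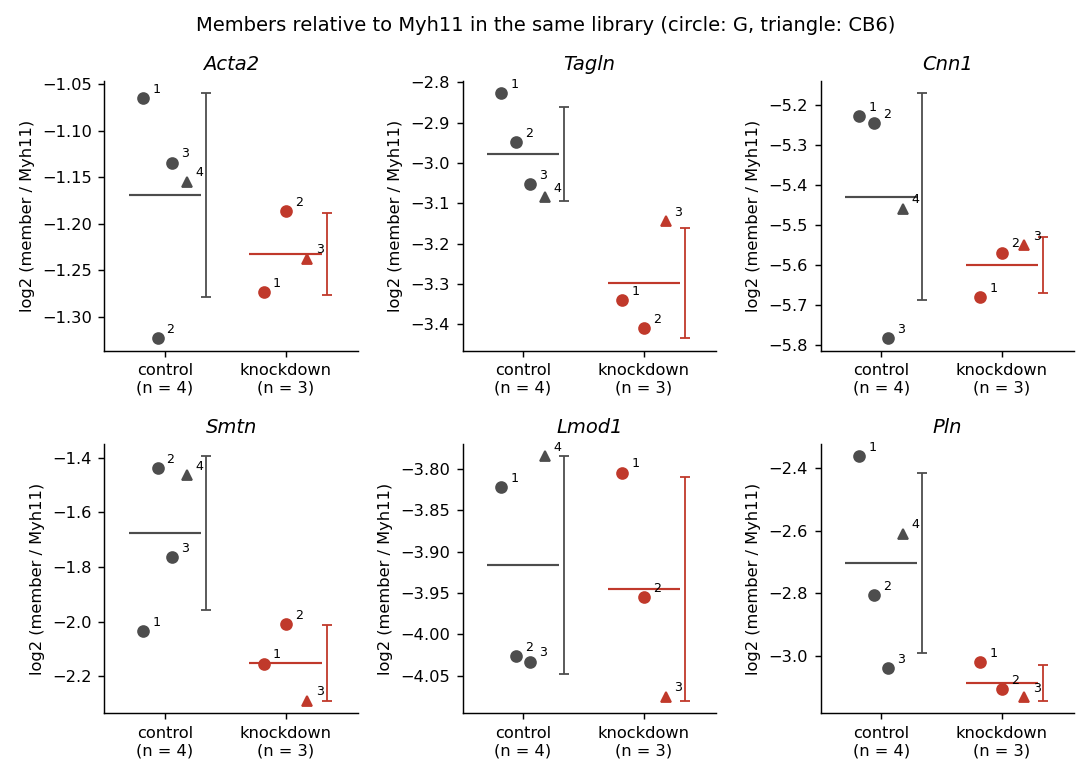
Log2 ratio of each member to Myh11 in the same library (vertical axes, each with its own range), with group means as lines, the SD as bars, circles for libraries titled G and triangles for CB6. The groups are apart for Tagln and overlap for the other 5 genes.

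Beyond the members, 92 measured genes of 111 listed for smooth muscle contraction and its control were followed. None passed limma's test with Benjamini-Hochberg adjustment over all genes (0 higher and 0 lower), where 3.02% of all genes did. At an unadjusted p under 0.05 there were 8 with higher and 9 with lower means in knockdown, beside 18.4% of all genes in either direction, so that the share among the listed genes was near the background. Of the 92 genes, 5 had the smallest possible exact permutation p of 0.0286 (Fhl1, Avpr1a and, named after their values were seen, Ryr3, Adora1 and Tead3). The share of all genes with this p was not counted, so neither these 5 nor the 0 among the members can be set against a background. Groups were apart for 13 of the 92 genes (14.1%, beside 18.4% of all genes), and the median log2 difference was -0.0050 beside 0.02.

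Of the 17 motor and thin filament genes, 3 had lower means (Vim, Mylk and Tpm4) and 1 a higher mean (Synpo2, 0.38, named after its values were seen) at an unadjusted p under 0.05, which 18.4% of all genes had. Groups were apart for 3 of the 17 (17.6%, also beside 18.4% of all genes). Vim, the intermediate filament vimentin, had 12.19, 12.24 and 12.33 in knockdown and 12.77, 12.43, 12.86 and 12.67 in control libraries, all controls above all knockdown libraries, and missed the threshold (log2 difference -0.43, SE 0.10; limma, Benjamini-Hochberg adjusted p = 0.0596). Mylk, the kinase that activates smooth muscle myosin, had 13.41, 13.69 and 13.69 against 14.25, 13.74, 14.26 and 14.05, with groups that touch closely but do not overlap (log2 difference -0.48; adjusted p = 0.103 by limma). Tpm4, a tropomyosin, had a difference of -0.36 (adjusted p = 0.0900), and Myl9, the regulatory myosin light chain, of -0.36 (adjusted p = 0.298). The differences of Tpm2 and Cald1, the tropomyosin and caldesmon of thin filaments, were 0.04 and 0.01. Without control replicate 2, 480 of all genes passed, the most with any library left out, beside 391 with all libraries. Mylk, Vim and Tpm4 were among them (limma, Benjamini-Hochberg adjusted p = 0.0230, 0.0112 and 0.0230). Mesangial markers differed in the same direction with all libraries kept. Of the 11, 10 were negative and 3 fell (Serpine2, Sfrp2 and Nt5e, named for having passed), beside 2.02% of all genes that passed with lower values. The share of negative differences over all genes was not counted. The mesangial marker means were 10.75 to 10.85 in knockdown and 10.89 to 11.30 in control libraries. Glomerular endothelial markers were negative in 10 of 10 (median -0.23, 0 called; means of 12.56 to 12.83 in knockdown and 12.72 to 13.16 in control libraries), and podocyte markers in 8 of 10 (median -0.24, with Magi2 called lower; means of 13.08 to 13.29 and 13.08 to 13.62). The part of these cell types in the values of Vim, Mylk and Tpm4 was not tested.

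The 10 measured relatives of the members had a median log2 difference of -0.03, with groups apart for 0 of them, beside 18.4% of all genes. Tagln2, a transgelin of many non-muscle cells, differed by -0.22 (limma, Benjamini-Hochberg adjusted p = 0.228) and Tmod2, a tropomodulin that caps filaments, by 0.33 (adjusted p = 0.243 by limma). Among 16 adhesion and scaffold genes, the LIM-domain gene Fhl1 came closest to the threshold: its log2 values were 11.29, 11.06 and 11.34 in knockdown and 11.58, 11.60, 11.57 and 11.49 in control libraries. Those groups did not overlap (log2 difference -0.33, SE 0.07; adjusted p = 0.0552 by limma with Benjamini-Hochberg adjustment). Fhl1 was the only 1 of the 16 with groups apart (6.25%, beside 18.4% of all genes). Csrp1, another LIM-domain gene, differed by -0.28.

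Groups were apart for 2 of 22 genes of calcium handling and cGMP signalling (9.09%, beside 18.4% of all genes). The first was Kcnmb1, the smooth muscle subunit of the large calcium-activated potassium channel. It stood at 7.48, 7.35 and 7.47 in knockdown and 7.28, 6.79, 7.22 and 6.97 in control libraries (log2 difference 0.37; limma, Benjamini-Hochberg adjusted p = 0.198). Itpr1, the calcium release channel opened by inositol trisphosphate, differed by -0.18 with overlapping groups. Ryr3 also had groups apart, but it is 1 of 107 genes whose values in the libraries titled G differed only by fixed library offsets (within 0.003), and its values spanned only 4.65 to 4.69 over all libraries. None of the members was among those 107.

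Of 11 genes of receptors that act on vascular tone, 4 had groups apart, 3 with higher and 1 with lower values in knockdown (36.4%, beside 18.4% of all genes). Avpr1a, the vasopressin receptor of vessels, had 8.57, 8.70 and 8.28 against 8.04, 8.16, 7.96 and 8.28, with the lowest knockdown and highest control library almost equal (log2 difference 0.41; limma, Benjamini-Hochberg adjusted p = 0.131). Ptger3, a prostaglandin E receptor also found in tubule cells, differed by 0.34 (adjusted p = 0.164 by limma). The other 2, named after their values were seen, were Adora1 (0.25) and the angiotensin receptor Agtr1a (-0.19). Distal nephron and collecting duct markers had a median difference of 0.24 in the same comparison, with 6 positive and 2 negative (Umod and Hsd11b2). Their means were 12.13 to 12.38 in knockdown and 11.73 to 12.35 in control libraries. Of the 8, 2 rose (Slc4a1 and Atp6v1g3, named for having passed), beside 0.996% of all genes that passed with higher values. The part of these cells, or of the proximal tubule markers that were lower in knockdown, in the values of Ptger3 and Avpr1a was not tested.

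Regulators of the contractile genes had mostly positive differences, 14 of 18, with a median of 0.12 beside 0.02 over all genes. The share of positive differences over all genes was not counted. None of the 18 passed, and groups were apart for 3 of them (16.7%, beside 18.4% of all genes). Myocd, the coactivator myocardin, had 7.74, 7.85 and 7.88 in knockdown and 7.65, 7.19, 7.57 and 7.31 in control libraries, so that the groups did not overlap, and it did not pass (log2 difference 0.39, SE 0.13; limma, Benjamini-Hochberg adjusted p = 0.163). Its DNA-binding partner Srf had an opposite sign, with 9.48, 9.44 and 9.29 against 9.34, 9.33, 9.92 and 9.72 and a log2 difference of -0.17 (adjusted p = 0.587 by limma). Tead1, a transcription factor that acts with many partners in muscle, differed by 0.22 (adjusted p = 0.116 by limma) and Heyl, a Notch target of smooth muscle, by 0.43 (adjusted p = 0.152 by limma). Acta2, Tagln and Cnn1, whose promoters are textbook targets of Srf and myocardin, differed by 0.24, -0.02 and 0.13 in the same libraries.

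**Figure D5:**
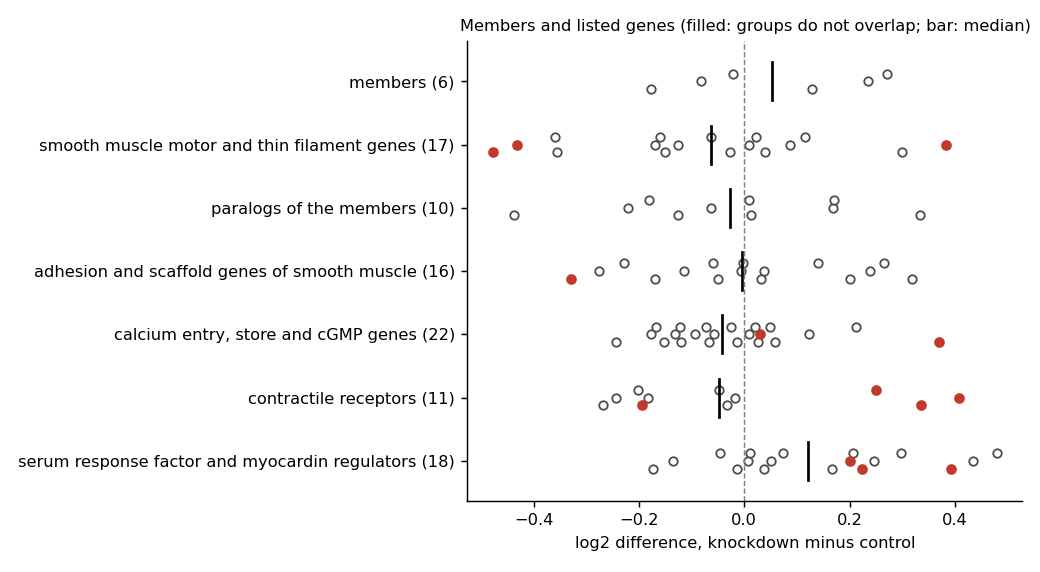
Log2 difference of knockdown minus control (horizontal axis) for the 6 members and for the listed genes by role, with the number of measured genes in brackets; filled points have groups that do not overlap and bars are medians. The members run from -0.18 to 0.27 with no filled point, and the highest median, 0.12, is that of the regulators.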

How the data were processed

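The authors deposited 1 table per library that pairs gene symbols with log-scale values. How the authors normalized the deposited values is not stated, nor is the base, and they were taken as log2 from their range and totals; another base would scale differences by a constant and leave the tests as they are. Reads were aligned with BWA to build mm10, per the submitters' processing notes; how reads were counted and normalized, and whether strand was used, is not given in the labels or notes. Whether values are per gene length is not stated, so levels were not compared between genes. Coordinates and coding sequences came from GENCODE mouse release M21 (GRCm38, the same build), promoter windows from RefSeq.

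Knockdown (n = 3) was compared with control (n = 4) on all 12958 genes with limma (version 3.58.1, R version 4.3.3), letting the variance follow the intensity, with adjustment by Benjamini-Hochberg and 0.05 as the threshold. Genes had to exceed the lowest value of all tables in at least 3 libraries, which removed 0 genes. Exact permutation tests were two-sided over all 35 splits. The fit was tested on simulated data. The members, gene lists and tests were chosen with earlier results of these data known. Genes named are the members, the 2 listed genes with the smallest p in each list (none passed), 9 genes fixed by name and the 5 genes nearest to Acta2 and to the mean member profile; others are marked in the text. Results of 1 further list of contraction genes are not reported here. As alternatives, libraries were quantile normalized or shifted to 1 median, the filter was dropped or tightened to genes with a mean at or above the median gene, the variance trend was dropped, title style was a covariate, and the CB6 libraries together or each library in turn were left out.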

Additional observations from a re-analysis of the deposited data

How the results depend on the processing

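None of the 6 members passed limma's test in any alternative that could be run (adjusted p with Benjamini-Hochberg from 0.271 to 0.983 over them). Acta2, Lmod1 and Smtn kept their sign throughout; Tagln, Lmod1 and Cnn1 were not among the genes with a mean at or above the median gene. With a library left out, log2 differences ran from 0.04 to 0.42 for Acta2, -0.18 to 0.13 for Tagln, 0.02 to 0.23 for Cnn1, -0.26 to -0.03 for Smtn, 0.09 to 0.41 for Lmod1 and -0.26 to 0.066 for Pln. In the libraries titled G only, Cnn1 was at -0.060, with 1 knockdown library fewer and 1 control library fewer. Over all genes, 391 passed as reported, 191 with title style as a covariate, 40 in the libraries titled G only, and from 134 to 480 with a library left out (203, 134 and 147 without knockdown replicates 1, 2 and 3, and 146 without control replicate 4). Of the 92 listed genes, 1 passed with quantile normalization (Vim), 2 among the genes with a mean at or above the median gene (Vim and Fhl1), and 0 to 3 with a library left out. The cause was not tested for any of these settings. No paired analysis was possible because the labels tie no mouse of 1 group to a mouse of the other; the replicate numbers used here follow the order of deposit and only name libraries. Without read counts, what sequencing depth limits cannot be given, and the number of mice limits the precision: the 95% intervals of the members' log2 differences were 0.71 to 1.08 wide.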
